A study of Xenopus tropicalis with 15 samples.

Results

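The response of the regenerating tadpole tail to IWR-1 was examined by comparing 3 libraries of tissue reared with IWR-1 with 3 libraries of tissue reared with the solvent DMSO, 6 of the 15 libraries of the series. All came from wild-type Xenopus tropicalis whose tails lost their posterior portion at NF stage 41, 3 days after fertilisation, and all recovered in Modified Ringers at 23 °C until 24 h post amputation (24 hpa), when about 250 µm of regenerating tissue was taken. The DMSO group received 0.1% DMSO and the IWR-1 group 10 µM IWR-1. The other libraries of the series, 3 each, were tissue next to the cut at 0 hpa, and regenerates at 24 hpa with 5 µM 2-methoxyestradiol (2ME) or 0.5 µM echinomycin, both known as inhibitors of the hypoxia factor Hif1a. Groups were read from the sample titles. For the 3 IWR libraries, the field for the treatment reads IWR-1, IWR-2 and IWR-3 in replicates 1, 2 and 3, whereas the design text mentions no compound of the last 2 names. All 3 were taken as IWR-1, and the value for the library labelled IWR-1 alone is given for part of the results that differ. Not every named gene that lost its call for that library is marked in the text.

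IWR-1 is a small molecule that inhibits the tankyrases Tnks and Tnks2. Tankyrases mark Axin for degradation, and Axin is the scaffold of the destruction complex in which Gsk3b and casein kinase 1 phosphorylate beta-catenin. With Axin kept, less beta-catenin reaches the nucleus to act with Lef1 and Tcf proteins on targets such as axin2, a negative feedback gene that is used as a readout of the pathway. In the tadpole tail, Wnt signalling acts together with Fgf and Bmp signalling during outgrowth after amputation.

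The estimated counts summed to 18.6, 22.8 and 23.4 M in the DMSO libraries and to 22.1, 22.1 and 20.02 M in the IWR-1 libraries, and 3 counts, the most that a count of 0 allows, corresponded to 0.128 to 0.169 CPM. Such floors and the counting intervals below cover counting error only. Levels are CPM, counts scaled to library size and by TMM factors, which were 0.913 to 0.959 with DMSO and 1.03 to 1.07 with IWR-1, and the 10 gene models most abundant with DMSO held 9.46 to 9.91% of the DMSO counts and 6.84 to 7.28% of the IWR-1 counts. Over the 18823 models tested, log2 levels correlated with Pearson's r of 0.9937 to 0.9950 within DMSO, 0.9936 to 0.9956 within IWR-1 and 0.9707 to 0.9839 between them. Lists of epidermis, notochord, striated muscle, spinal cord, blood and vessel genes all had counts in the 6 libraries, with summed levels given below. Log2 ratios are IWR-1 minus DMSO ± SE, and adjusted p-values come from edgeR's quasi-likelihood test with Benjamini-Hochberg adjustment over the 18823 models. A model was called when that value was under 0.05. Nothing in the labels tells whether replicates are separate clutches or pools, and the spread behind the p-values is that among these libraries, which may be technical.

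With IWR-1, the signalling and positional genes fgf20, fgf8, ventx2.2, dlx4 and axin2 and most hox genes of the trunk and tail were lower, and many genes of sterol and fatty acid synthesis, drug metabolism and muscle were higher. In all, 7960 of 18823 models were called (42.3%), 3748 of them higher (19.9%) and 4212 lower (22.4%), and 1624 (8.63%) were called with a change of 2-fold or more, 1117 higher (5.93%) and 507 lower (2.69%). The 3 IWR-1 libraries lay wholly above or below the 3 DMSO libraries in 9824 models (52.2%). Without any scaling factor, 5715 models were called higher and 2296 lower, and limma on the authors' CPM, a table of 15892 models, gave 5342 and 2176. The median log2 ratio over the models covered was higher by 0.16 in the first and by 0.13 in the second, so that changes of that size depend on the scaling. With the library labelled IWR-1 as the lone IWR sample, assumed to vary like the other groups, 3443 models were called, 1708 higher and 1735 lower.

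**Figure D1:**
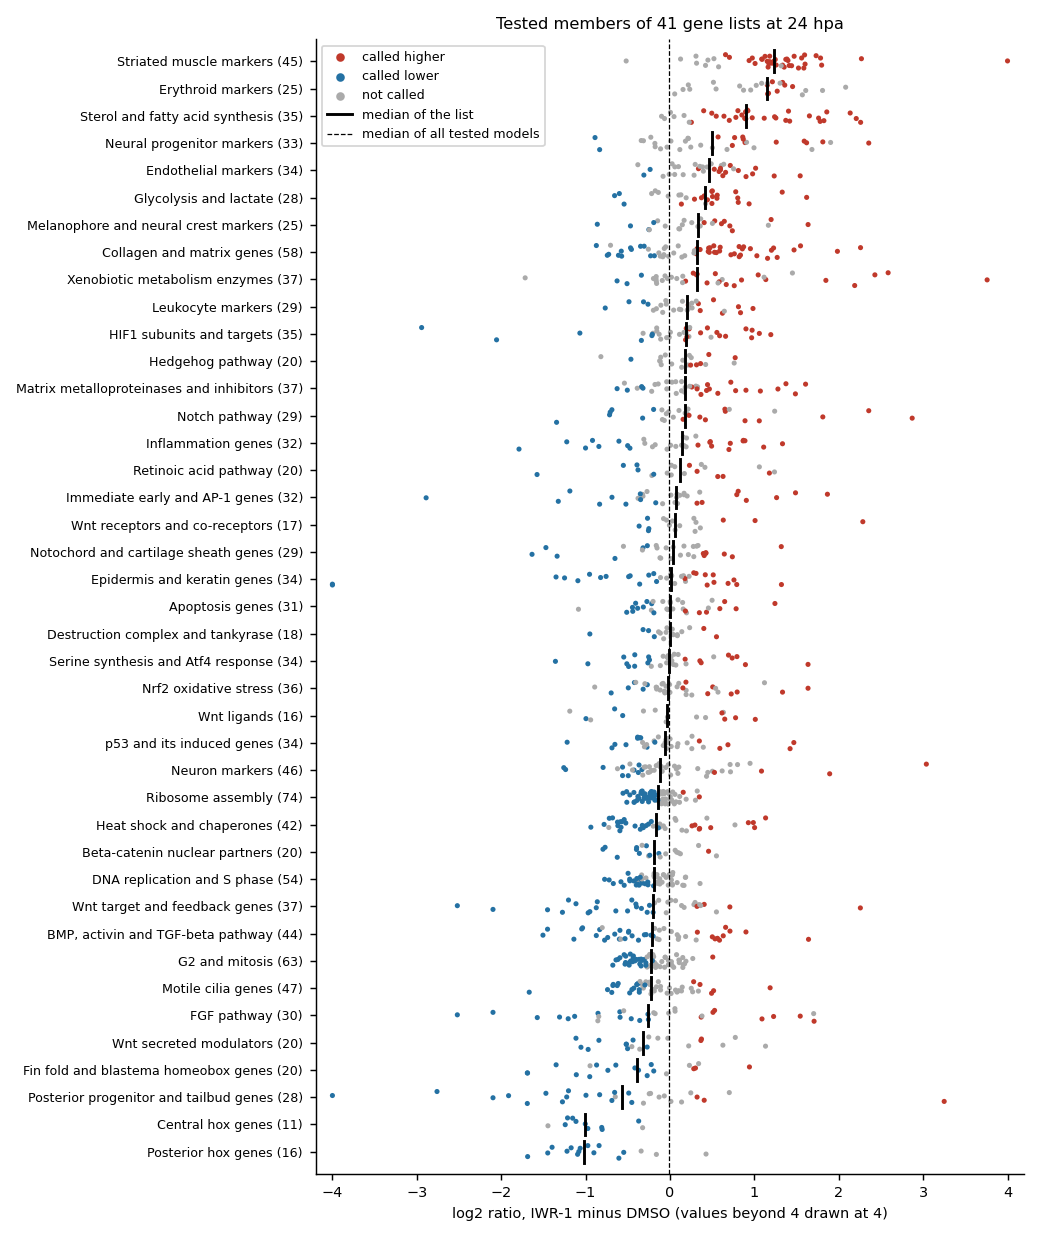
Log2 ratio (IWR-1 minus DMSO, 3 libraries each, x axis) of every tested member of 41 gene lists (y axis, number of tested models in brackets), sorted by list median. Red and blue points were called higher and lower, and the hox lists lie lowest (medians -1.02 and -1.003) while striated muscle lies highest (1.23), against a median of -0.016 for all tested models.

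The largest falls among named genes were in keratins, a transcription factor of the early response and Fgf ligands. The keratin genes krt51 and krt53 had 881 and 367 counts over the DMSO libraries and 1 and 3 counts over the IWR-1 libraries, a ratio of 977 (95% exact interval 175 to 38618) and of 136 (46.0 to 661) after scaling. Keratin genes lie in families of similar copies, so the counts of single members are uncertain. The abundant keratin krt12.2 had 12363, 14369.6 and 12591 CPM with DMSO and 2881, 2890.0 and 2626 CPM with IWR-1 (log2 ratio -2.23 ± 0.16, adjusted p = 4.1e-08). All IWR-1 libraries were far below the DMSO libraries, and krt78.1 showed the same arrangement (-2.10 ± 0.14). The immediate early gene fos, a subunit of AP-1, had 146, 168 and 153 CPM with DMSO and 14.4, 22.9 and 25.7 CPM with IWR-1 (log2 ratio -2.89 ± 0.23, adjusted p = 1.2e-07), a 7.41-fold difference. The ventral homeobox gene ventx2.2, a Bmp target in Xenopus embryos, fell by 2.76 on the log2 scale, and lrat, which esterifies retinol, fell by 2.55. The secreted hormone gene stc1 had 63.4, 49.6 and 35.6 CPM with DMSO and 12.24, 10.6 and 12.8 CPM with IWR-1 (log2 ratio -2.05 ± 0.19, adjusted p = 4.2e-07), with no overlap. The chemokine cxcl11 (-1.79 ± 0.37) and the actin-binding protein gene aif1l (-1.73 ± 0.20) completed the 12 largest falls together with fgf20 and fgf8, described below.

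Among the largest rises were P450 and sulfate metabolism genes and models with no named product. A gene model named mgc108322, whose product is not named in the files, had 9.33, 5.39 and 8.07 CPM with DMSO and 603, 735 and 783 CPM with IWR-1 (log2 ratio 6.55 ± 0.16, adjusted p = 1.3e-13), a 93.6-fold difference. The model XB5810926, which carries a placeholder name and was picked out after its values were seen, had 28.8 to 52.5 CPM with DMSO and 861 to 1391 CPM with IWR-1 (log2 ratio 4.84 ± 0.21, adjusted p = 2.5e-10). The cytochrome P450 genes cyp2e1 and cyp2f1 rose by 3.76 and 2.85 on the log2 scale, and papss2, which makes the sulfate donor used by sulfotransferases, had 63.3, 52.0 and 70.2 CPM with DMSO and 343, 555 and 562 CPM with IWR-1 (log2 ratio 2.98 ± 0.15, adjusted p = 1.4e-09). In all 5 models the IWR-1 libraries stood clear of the DMSO libraries, with replicate 1 the lowest of the 3. The glycine cleavage enzyme gldc (2.75 ± 0.19), the betaine-homocysteine methyltransferase bhmt (3.06 ± 0.31), the ganglioside synthase st3gal5 (2.75 ± 0.32), teddm1 (3.41 ± 0.19), the thyroid hormone-induced bZIP gene thibz (2.70 ± 0.25), thdl20 (2.72 ± 0.43) and megf10, an engulfment receptor that mouse muscle satellite cells also make (2.75 ± 0.25), were the others. A further model, a copy of slc41a2 (a magnesium transporter), had 341, 821 and 182 counts in the IWR-1 libraries and 0 in each of the 12 others, at least 404-fold higher than DMSO if 3 counts are set for the whole DMSO group. A second slc41a2 model was expressed in all libraries, and the only other model with at least 3 counts in every IWR-1 library and 0 in all other libraries was rn18s, an 18S ribosomal RNA, with 108, 23 and 45 counts.

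Several feedback inhibitors of Wnt signalling fell, and most genes of the destruction complex were not called, as was true of most models tested. The readout gene axin2 had 57.1, 62.9 and 52.3 CPM with DMSO and 30.6, 28.3 and 30.3 CPM with IWR-1 (log2 ratio -0.95 ± 0.075, adjusted p = 9.7e-08), a 1.93-fold lower level, and all 3 IWR-1 libraries lay below the DMSO libraries. Of the 18 members of the destruction complex and tankyrase list, axin2 fell the most, 2 rose, 4 fell and 12 were not called (median -0.0041). The share of falls was near the 22.4% of all models called lower, and that of rises below the 19.9% called higher. Without scaling, 8 rose and 2 fell. The inhibitor's target tnks2 had 29.7, 25.6 and 33.3 CPM with DMSO and 38.8, 44.9 and 46.3 CPM with IWR-1 (log2 ratio 0.55 ± 0.11, adjusted p = 5.6e-04), all IWR-1 libraries being above the DMSO ones, and was not called for the library labelled IWR-1 alone. Its paralog tnks (0.086 ± 0.064, adjusted p = 0.30), the scaffolds axin1 (-0.075 ± 0.095, adjusted p = 0.56) and apc (0.087 ± 0.065, adjusted p = 0.30) and the kinase gsk3b (-0.14 ± 0.068, adjusted p = 0.12) were not called. The beta-catenin gene ctnnb1 differed by -0.13 ± 0.049 (adjusted p = 0.040), which is smaller than the shift of all models between scalings and it was not called with RLE or upper-quartile factors, without scaling (0.028) or without any single library but DMSO replicate 3. RNA levels say nothing of the Axin or beta-catenin protein.

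Ligands and receptors moved in both directions. Of 16 tested Wnt ligand models, 4 rose, 3 fell and 9 were not called (median -0.038, positive with upper-quartile factors or without scaling). These shares were near the 19.9% and 22.4% of all models called higher and lower. The non-canonical ligand gene wnt5a, a gene of the distal outgrowth, had 133, 137 and 135 CPM with DMSO and 61.5, 68.0 and 73.6 CPM with IWR-1 (log2 ratio -0.995 ± 0.098, adjusted p = 1.0e-06). Its relative wnt5b (-0.66 ± 0.073) and the epidermal and neural ligand gene wnt7b (-0.56 ± 0.080) also fell, whereas wnt10a (0.62 ± 0.16), wnt10b (1.01 ± 0.30), wnt9b (0.78 ± 0.23) and wnt11b (0.65 ± 0.21) rose, and the canonical ligand gene wnt3a was not called (-0.31 ± 0.24, adjusted p = 0.31). The fallen ligands were separated from DMSO in every library. Of those that rose, wnt9b, wnt10b and wnt11b were not called without DMSO replicate 2, and wnt9b, wnt10a and wnt10b not for the library labelled IWR-1 alone. Among 17 receptor and co-receptor genes, 3 rose and 4 fell, close to the shares of all models called higher (19.9%) and lower (22.4%). The risers were fzd9 (2.29 ± 0.41), fzd1 (1.01 ± 0.17) and the R-spondin receptor lgr4 (0.63 ± 0.088), and the fallers fzd6 (-0.37 ± 0.079), fzd7, ror2 and ptk7 were each within 0.37 of DMSO on the log2 scale. None of these falls was called without scaling. The co-receptors lrp5 (0.062 ± 0.092, adjusted p = 0.62) and lrp6 (-0.076 ± 0.071, adjusted p = 0.41) were not called.

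Of the 20 secreted and membrane modulators of Wnt signalling, 9 fell and 2 rose (median -0.31). The Lrp antagonist gene dkk1 had 41.0, 42.6 and 45.1 CPM with DMSO and 21.9, 18.9 and 18.6 CPM with IWR-1 (log2 ratio -1.11 ± 0.090, adjusted p = 1.2e-07), and its receptor gene kremen1 had 99.5, 104 and 109 CPM with DMSO and 54.1, 48.1 and 48.2 CPM with IWR-1 (log2 ratio -1.05 ± 0.077, adjusted p = 4.6e-08). The receptor-level inhibitor apcdd1 had 76.4, 80.5 and 74.6 CPM with DMSO and 42.0, 39.8 and 36.4 CPM with IWR-1 (log2 ratio -0.97 ± 0.081, adjusted p = 1.8e-07). Each was far below its DMSO level, with no overlap between the groups. The R-spondin gene rspo2, which raises Frizzled at the cell surface (-0.84 ± 0.11), kremen2 (-0.52 ± 0.052), the Wnt carrier gene wls (-0.44 ± 0.052), the Wnt acyltransferase gene porcn (-0.27 ± 0.086), wif1 (-0.50 ± 0.14) and tpbg (-0.52 ± 0.079) fell as well, porcn and wif1 not without scaling. The 2 that rose, neither called without DMSO replicate 2 or IWR-1 replicate 3, were sfrp2 (0.37 ± 0.14) and dkk3 (0.37 ± 0.12), and the Wnt deacylase gene notum was not called (-0.025 ± 0.14, adjusted p = 0.90).

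Among the nuclear partners of beta-catenin, 9 of 20 models fell and 1 rose (median -0.19; without scaling, 5 fell and 4 rose). The transcription factor gene lef1, itself a Wnt target, had 73.0, 64.9 and 86.6 CPM with DMSO and 52.6, 57.5 and 60.5 CPM with IWR-1 (log2 ratio -0.40 ± 0.12, adjusted p = 0.013). Its IWR-1 libraries were all lower, the highest of them close to the lowest DMSO library, and it was not called without scaling, without DMSO replicate 3 or without IWR-1 replicate 1. The co-repressor genes tle1 (-0.79 ± 0.073) and tle2 (-0.77 ± 0.066) and the adaptor ldb1 (-0.62 ± 0.13) fell further, and the riser was tcf7l2 (0.46 ± 0.13). Of the 37 Wnt target and feedback genes, 19 fell, 4 rose and 14 were not called, with a median of -0.20 against -0.016 for all models, and 12 fell and 9 rose without scaling. Besides axin2, dkk1 and apcdd1, the falls included bambi, a pseudoreceptor that dampens Bmp signalling, with 302, 296 and 276 CPM with DMSO and 110.4, 109 and 100.004 CPM with IWR-1 (log2 ratio -1.45 ± 0.082, adjusted p = 3.1e-09). The posterior homeobox gene cdx2 had 53.9, 58.8 and 61.9 CPM with DMSO and 20.3, 21.7 and 30.4 CPM with IWR-1 (log2 ratio -1.27 ± 0.16, adjusted p = 9.5e-06), and cdx4 fell by 1.203 on the log2 scale. In both genes all IWR-1 libraries were below all DMSO libraries. Smaller falls were seen in prickle1 (-0.87 ± 0.096), snai2 (-0.86 ± 0.094), msx2 (-0.64 ± 0.060), sall4 (-0.45 ± 0.072), the Frizzled-degrading ligase gene znrf3 (-0.40 ± 0.13) and ccnd1 (-0.34 ± 0.11), the last 2 not called without scaling. Other widely used targets were not called: sp5 (0.28 ± 0.27, adjusted p = 0.42), nkd1 (-0.044 ± 0.14, adjusted p = 0.83), rnf43 (0.066 ± 0.071, adjusted p = 0.48), lgr5 (0.30 ± 0.21, adjusted p = 0.28), sp8 (0.34 ± 0.14, adjusted p = 0.059) and myc (0.011 ± 0.062, adjusted p = 0.90). The 4 that rose were ascl2 (2.26 ± 0.32), twist1 (0.71 ± 0.13), jun (0.32 ± 0.082) and the notochord and tailbud factor tbxt (0.41 ± 0.15, adjusted p = 0.042), whose groups overlapped and which was not called without replicate 2 or 3 of either group.

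**Figure D2:**
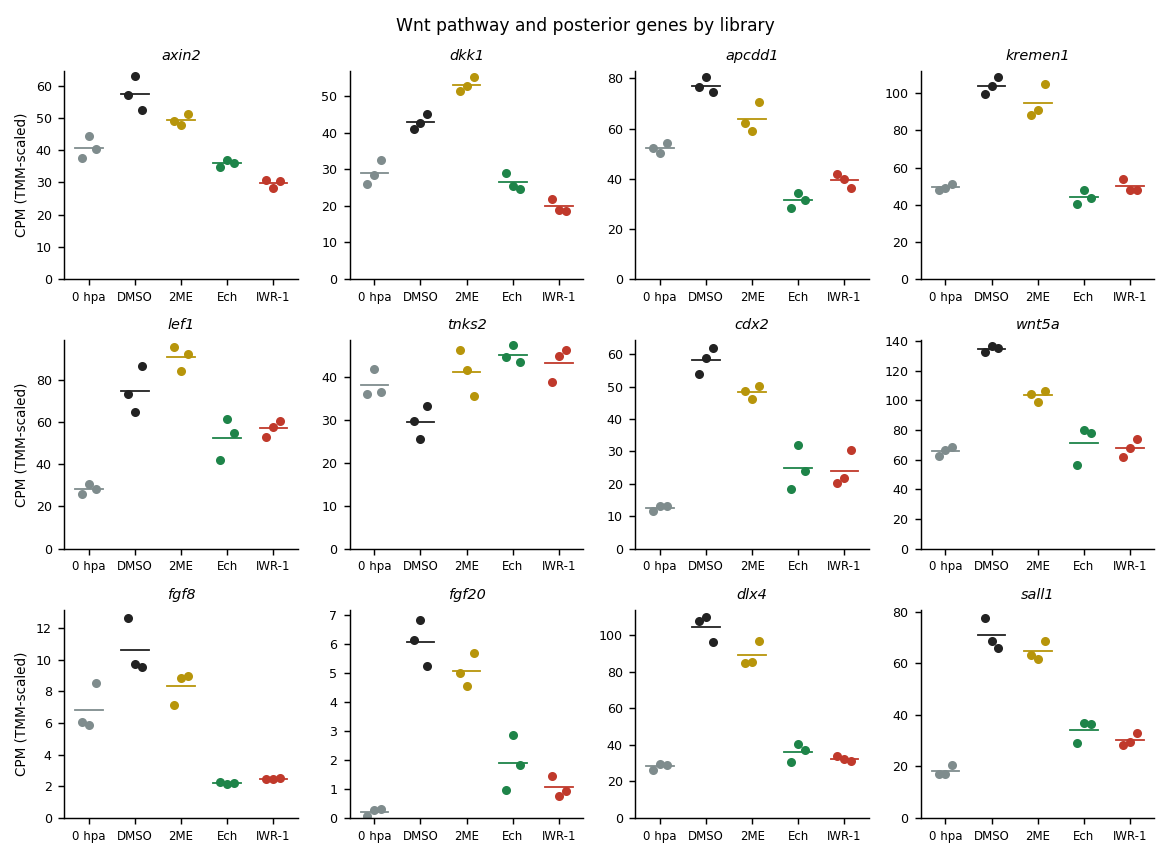
TMM-scaled CPM (y axis, starting at 0) of 12 genes in each of 3 libraries of 5 groups (x axis), with the group mean as a line. The IWR-1 libraries lie below the DMSO libraries in every panel but tnks2, where they lie above, and for fgf8 they sit at 2.44 to 2.52 CPM.

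Hox genes of the trunk and tail fell in nearly all of their models. Hox genes encode homeobox factors arranged in clusters whose later paralog groups mark more posterior positions, and Wnt and Cdx factors are known to activate them in the embryonic tailbud. Of 16 tested models of posterior hox genes (groups 9 to 13), 13 fell, 0 rose and 3 were not called (median -1.02), and of 11 models of central hox genes (groups 5 to 8), 9 fell and 0 rose (median -1.003). At an unadjusted p under 0.05, 1 posterior model and 0 central models were higher, and DESeq2 called 0 higher in both lists. Hox gene hoxa9 had 168, 174 and 157 CPM with DMSO and 79.9, 79.1 and 76.9 CPM with IWR-1 (log2 ratio -1.08 ± 0.064, adjusted p = 6.0e-09), and hoxa7 had 56.4, 62.7 and 61.3 CPM with DMSO and 24.3, 27.0 and 25.0 CPM with IWR-1 (log2 ratio -1.24 ± 0.087, adjusted p = 2.9e-08). The hoxc9 model gene27488 fell by 1.69, the hoxd10 model gene12917 by 1.45 and hoxa10 by 0.90 on the log2 scale, and hoxc8, hoxb7 and hoxb8 by 1.11 to 1.21. In the 22 models that fell, no IWR-1 library reached a DMSO library. The uncalled ones were hoxc12 (0.43 ± 0.20), hoxc13 (-0.16 ± 0.14), the second hoxd10 model, hoxb5 and hoxb6, and 1 model, hoxc12, was called higher without scaling, with limma on the authors' CPM or when the 2 groups were fitted alone. From 0 hpa to 24 hpa with DMSO the posterior models had a median log2 ratio of 0.96 and the central ones of 0.49. For IWR-1 against the same 0 hpa libraries, the medians were -0.21 and -0.48.

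**Figure D3:**
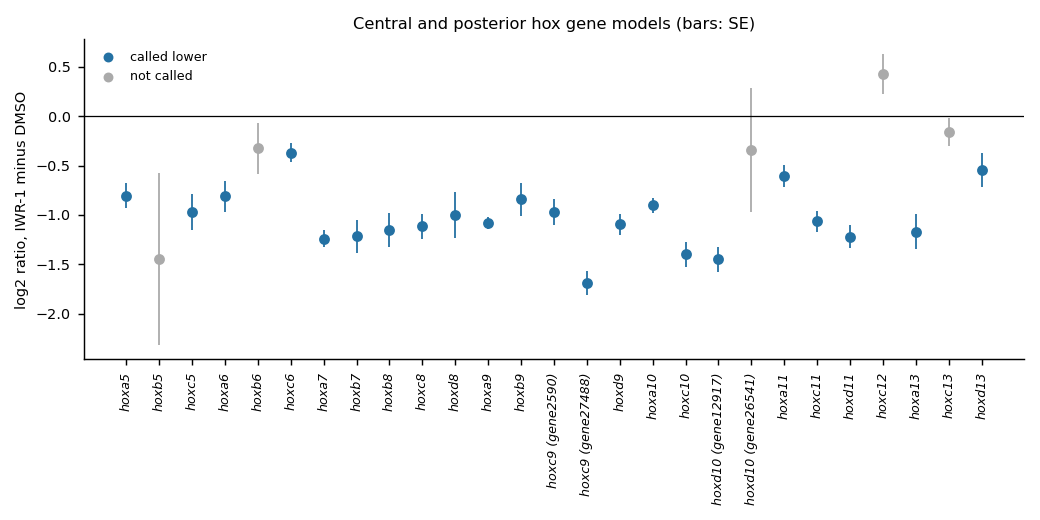
Log2 ratio (IWR-1 minus DMSO, y axis; bars are SE; 3 libraries per group) of 27 hox gene models ordered by paralog group. Models called lower (blue) lie between -0.37 for hoxc6 and -1.69 for a hoxc9 model, and the grey ones were not called.

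Tailbud genes more often fell than rose, 15 of 28 falling and 3 rising (median -0.57), against 22.4% and 19.9% of all models. The 3 that rose were pcdh8 (log2 ratio 3.25), tbxt (0.41) and cyp26a1 (0.32), of which pcdh8 and cyp26a1 were named after their values were seen. The zinc finger factor sall1 had 77.8, 68.8 and 66.0 CPM with DMSO and 28.5, 29.7 and 32.8 CPM with IWR-1 (log2 ratio -1.22 ± 0.098, adjusted p = 1.1e-07), and ventx2.2 had 5.51, 5.58 and 7.35 CPM with DMSO and 1.06, 0.770 and 0.887 CPM with IWR-1 (log2 ratio -2.76 ± 0.23, adjusted p = 1.5e-07). These libraries were separate in both genes. The related ventx2.1 (-1.91 ± 0.22), whose reads may be shared with ventx2.2, and the posterior homeobox gene evx1 (-1.69 ± 0.23), both picked out after their values were seen, fell too. On the list of fin fold and blastema genes, only part of them homeobox genes, 13 of 20 fell and 3 rose (median -0.39). Without scaling, 8 fell. The homeobox gene prrx1, named after its values were seen, was among the risers (log2 ratio 0.94). The fin fold gene dlx4 had 108, 109.8 and 96.3 CPM with DMSO and 33.7, 32.6 and 31.0 CPM with IWR-1 (log2 ratio -1.69 ± 0.090, adjusted p = 1.7e-09), dlx5 had 196, 210.4 and 198 CPM with DMSO and 106, 108 and 99.0 CPM with IWR-1 (log2 ratio -0.95 ± 0.079, adjusted p = 1.8e-07), and dlx3 fell by 0.74. Every IWR-1 library was below every DMSO library in all 3 of these genes.

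Genes of the Fgf family moved in both directions, the largest falls being those of fgf20, fgf8 and fgf16. Of 12 tested Fgf genes 6 fell, 2 rose (fgf2 at 1.23 ± 0.34 and fgf12 at 0.53 ± 0.18 on the log2 scale, named after their values were seen) and 4 were not called. The rise of fgf12 was not called without DMSO replicate 1 or without IWR-1 replicate 1 or 3, nor with the 2 groups fitted alone, and that of fgf2 not for the library labelled IWR-1 alone. The ligand gene fgf20, known from zebrafish fin regeneration, had 6.12, 6.83 and 5.24 CPM with DMSO and 1.45, 0.770 and 0.933 CPM with IWR-1 (log2 ratio -2.52 ± 0.31, adjusted p = 1.0e-05), against a mean of 0.211 CPM at 0 hpa. The tailbud ligand gene fgf8 had 12.6, 9.72 and 9.55 CPM with DMSO and 2.47, 2.44 and 2.52 CPM with IWR-1 (log2 ratio -2.10 ± 0.17, adjusted p = 1.1e-07), and fgf16 had 31.4, 26.8 and 27.2 CPM with DMSO and 9.60, 10.3 and 8.77 CPM with IWR-1 (log2 ratio -1.57 ± 0.13, adjusted p = 2.0e-07). The groups did not overlap in any of them, and the receptor gene fgfr4 fell by 1.21. Of 30 Fgf pathway genes, 13 fell and 7 rose (median -0.26), the extracellular carrier gene fgfbp1 among the risers with 112, 109.6 and 129 CPM with DMSO and 250.3, 361 and 412 CPM with IWR-1 (log2 ratio 1.54 ± 0.14, adjusted p = 3.9e-07). Of 44 genes of the Bmp, activin and TGF-beta pathway, 21 fell and 10 rose (median -0.21). The ligand genes bmp2 (-0.83 ± 0.076) and bmp7.1 (-0.77 ± 0.070) and the Smad co-repressor gene ski (-1.04 ± 0.076) had, with bambi, the smallest adjusted p of that list.

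Notch, Hedgehog and retinoic acid genes had no common direction. Of 29 Notch pathway genes, 11 rose and 6 fell (median 0.18), or 6 rose without DMSO replicate 2. With all libraries, the share of Notch rises was above the 19.9% of all models called higher. That of Notch falls was near the 22.4% called lower. The Notch effector gene hey1 had 38.5, 38.6 and 35.9 CPM with DMSO and 16.1, 14.3 and 14.1 CPM with IWR-1 (log2 ratio -1.34 ± 0.092, adjusted p = 2.2e-08) and the ligand gene jag1 fell (-0.71 ± 0.073), while the receptor genes notch1 (0.89 ± 0.10) and notch3 (0.66 ± 0.071) rose. Other effector genes, picked out after their values were seen, went both ways. Of these, hes5.1 (log2 ratio 2.36) and hes5.2 (1.81) rose, as did maml2 (2.87), and hes1 (-0.72) and hes4 (-0.32) fell. Of 20 Hedgehog models, 5 rose and 1 fell (median 0.18; 0 fell without scaling), and 2 or 3 rose without DMSO or IWR-1 replicate 3. The share of Hedgehog rises was near the 19.9% of all models called higher, and that of falls below the 22.4% called lower. The transcriptional effector gli3 (0.36 ± 0.11) and the inhibitor sufu (0.24 ± 0.069) were among the risers. Of 20 retinoic acid models, 5 rose and 5 fell (median 0.11), near the shares of all models called higher (19.9%) and lower (22.4%). That split changed to 8 and 2 without scaling. The retinoic acid-degrading enzyme gene cyp26c1 had 210.4, 234 and 250.0 CPM with DMSO and 77.7, 82.0 and 73.4 CPM with IWR-1 (log2 ratio -1.58 ± 0.14, adjusted p = 4.6e-07), the synthesis enzyme gene aldh1a1 fell by 0.39, and the receptor rara rose in both of its models (0.63 ± 0.13 and 1.18 ± 0.23). For cyp26c1 no IWR-1 library came near the DMSO range. The related genes cyp26b1 (log2 ratio 0.57) and cyp26a1 (0.32), named after their values were seen, were called higher.

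Enzymes of cholesterol and fatty acid synthesis rose together. This pathway runs from acetyl-CoA through mevalonate and squalene to cholesterol, with a branch to long-chain fatty acids, and is switched on by Srebp factors when membrane sterol is low. Of 35 tested genes, 29 rose and 0 fell, all 29 with no overlap between the groups, and the median log2 ratio was 0.90. At an unadjusted p under 0.05 0 were lower, and DESeq2 and limma on the authors' CPM called 0 lower. The HMG-CoA synthase gene hmgcs1 had 54.8, 53.7 and 53.1 CPM with DMSO and 129.9, 207 and 211 CPM with IWR-1 (log2 ratio 1.76 ± 0.13, adjusted p = 3.4e-08). The squalene epoxidase gene sqle had 20.1, 19.4 and 21.6 CPM with DMSO and 59.7, 95.1 and 114 CPM with IWR-1 (log2 ratio 2.14 ± 0.16, adjusted p = 4.8e-08). The lanosterol demethylase gene cyp51a1 had 59.4, 63.5 and 61.3 CPM with DMSO and 125, 179.8 and 188 CPM with IWR-1 (log2 ratio 1.42 ± 0.12, adjusted p = 1.5e-07). The fatty acid synthase gene fasn had 40.2, 36.9 and 37.1 CPM with DMSO and 112, 199 and 216 CPM with IWR-1 (log2 ratio 2.21 ± 0.16, adjusted p = 4.7e-08). In each, the DMSO libraries lay close together and IWR-1 replicate 1 had the lowest of the 3 raised levels. For the library labelled IWR-1 alone, 26 genes rose and the median was 0.54. Members named here after their values were seen included the regulators srebf2 (0.78 ± 0.085) and insig1 (1.24 ± 0.11), the lipoprotein receptor gene ldlr (0.81 ± 0.10) and the desaturase gene fads2 (2.26 ± 0.34). The 6 that were not called, acly, acacb, mvk, stard4, elovl1 and elovl6, had log2 ratios of -0.10 to 0.23.

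**Figure D4:**
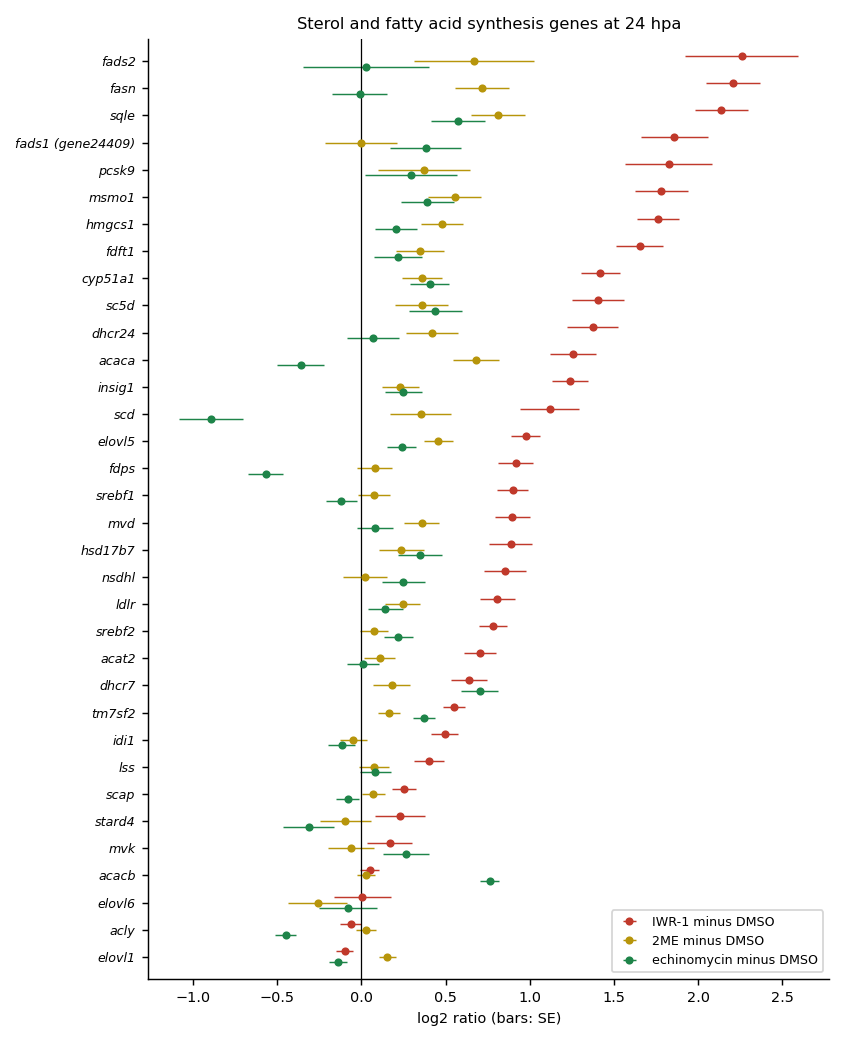
Log2 ratios to DMSO (x axis; bars are SE; 3 libraries per group) of 34 of the 35 sterol and fatty acid synthesis genes (y axis) for IWR-1, 2ME and echinomycin, which share the DMSO libraries. The IWR-1 points rise to 2.26 for fads2, and the medians over all 35 are 0.90, 0.18 and 0.21.

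Drug-metabolising enzymes rose in part, and stress genes were split or lower. Of 37 xenobiotic metabolism genes, 17 rose and 3 fell (median 0.31), or 10 and 2 for the library labelled IWR-1 alone. The P450 gene cyp2e1 had 3.03, 4.14 and 3.45 CPM with DMSO and 33.3, 54.8 and 56.5 CPM with IWR-1 (log2 ratio 3.76 ± 0.19, adjusted p = 1.4e-09), cyp4b1 had 12.4, 14.9 and 15.1 CPM with DMSO and 68.0, 91.1 and 96.5 CPM with IWR-1 (log2 ratio 2.59 ± 0.13, adjusted p = 1.4e-09), and the sulfotransferase gene sult1a1 had 31.5, 31.2 and 24.6 CPM with DMSO and 146, 175 and 147 CPM with IWR-1 (log2 ratio 2.43 ± 0.12, adjusted p = 1.4e-09). The IWR-1 libraries were several times above the DMSO range in these genes, and the efflux transporter gene abcg2 rose by 0.76. Of 36 models of the Nrf2 oxidative stress list, 8 rose and 5 fell (median -0.025, positive with upper-quartile factors or without scaling), a share of rises close to the 19.9% of all models called higher and a share of falls below the 22.4% called lower. Those called higher included the cystine transporter gene slc7a11 (1.64 ± 0.10), the glutathione synthesis enzyme gene gclc (0.73 ± 0.068) and abcc3 (0.51 ± 0.066), and the catalase gene cat.1 fell (-0.70 ± 0.095). The joint list of serine synthesis and Atf4 response genes split 8 higher and 10 lower of 34 (median -0.0098, positive with each other scaling). Those shares were not far from the 19.9% and 22.4% of all models. The gene atf4 itself (-0.49 ± 0.059) and the synthetase genes sars1 (-0.51 ± 0.060) and gars1 (-0.42 ± 0.055) were lower. The serine synthesis enzyme genes phgdh (log2 ratio -1.36), psat1 (-0.97) and psph (-0.24), picked out after their values were seen, were all called lower. Of 42 heat shock and chaperone genes, 20 fell and 9 rose (median -0.17). The endoplasmic reticulum chaperone genes hsp90b1 (-0.72 ± 0.058), calr (-0.68 ± 0.063), pdia4 (-0.59 ± 0.054) and manf (-0.78 ± 0.060) were those with the smallest adjusted p. The 9 that rose were led by heat shock genes picked out after their values were seen. These were hsp70 (log2 ratio 1.13), hspb8 (1.003), hspb1 (0.99) and hspa1b (0.93).

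Of 28 glycolysis and lactate genes, 17 rose and 3 fell (median 0.41). Striated muscle markers were higher in the same libraries (36 of 45 called, summed level 2939 to 3875 CPM with DMSO and 6992 to 7879 CPM with IWR-1). One gene, pgam2, is on both lists, and the other 27 glycolysis genes had 16 rises and 3 falls. The glycolysis sum was 3686 to 4147 CPM with DMSO and 5152 to 5918 CPM with IWR-1, and both sums were lower with DMSO than at 0 hpa, where glycolysis genes summed to 10104 to 11276 CPM. The part of muscle RNA in these changes was not tested. The lactate transporter gene slc16a1 had 74.5, 68.6 and 66.1 CPM with DMSO and 177, 172 and 177 CPM with IWR-1 (log2 ratio 1.33 ± 0.055, adjusted p = 1.2e-10) and the enolase gene eno1 had 234, 222 and 177 CPM with DMSO and 720.4, 614 and 610.1 CPM with IWR-1 (log2 ratio 1.62 ± 0.10, adjusted p = 8.6e-09), both well separated, while pfkfb3 (-0.66 ± 0.059) and the hexokinase gene hk1 (-0.60 ± 0.067) fell. Of 35 models of HIF1 subunits and targets, 14 rose and 6 fell (median 0.19), epas1 (1.06 ± 0.14) and bnip3l (0.66 ± 0.10) being higher and stc1 lower. For the library labelled IWR-1 alone, 4 of these rose and 2 fell.

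Muscle markers rose in most of their models. Of 45 tested, 36 rose and 0 fell (median 1.23), 0 were lower at an unadjusted p under 0.05, and DESeq2 and limma called 0 lower. The creatine kinase gene ckm had 312, 302 and 234 CPM with DMSO and 789, 887 and 825 CPM with IWR-1 (log2 ratio 1.56 ± 0.15, adjusted p = 8.5e-07), the cardiac actin gene actc1, used by tadpole skeletal muscle, had 529, 514 and 409.8 CPM with DMSO and 1078, 1192 and 1089.5 CPM with IWR-1 (log2 ratio 1.21 ± 0.14, adjusted p = 4.4e-06), and the fast troponin gene tnni2 rose by 1.44. No IWR-1 library overlapped DMSO in these genes. The myogenic regulators myf5 (1.47 ± 0.16) and, picked out after its values were seen, myod1 (2.27 ± 0.32) rose too. The summed level of the 51 marker models was 2939 to 3875 CPM with DMSO and 6992 to 7879 CPM with IWR-1, against 35903 to 39538 CPM at 0 hpa. Over the 10 marker lists plotted below, 3 members had 0 counts in all 6 libraries, myl3 of muscle, sox17b.2 of endothelium and col11a2 of the notochord list. In bulk tissue, more cells of a type and more RNA per cell cannot be told apart, here and in the lists below. The part of the muscle level in the falls of tailbud and hox genes was not tested.

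Blood, vessel and neural progenitor markers rose more often than they fell. Of 25 erythroid markers, 8 rose and 0 fell (median 1.16), among them the spectrin gene sptb (1.33 ± 0.28) and the haem synthesis gene fech (1.17 ± 0.28). At an unadjusted p under 0.05 14 were higher and 0 lower, and DESeq2 and limma called 0 lower. Their summed level was 376 to 440.5 CPM with DMSO and 633 to 1074 CPM with IWR-1, highest in IWR-1 replicate 2. Only 2 rose without that library and 5 without any one of the DMSO libraries, 18 were called when the 2 groups were fitted alone, and 0 for the library labelled IWR-1. Of 34 endothelial models, 14 rose and 2 fell (median 0.46), sox7 (0.90 ± 0.13) and s1pr1 (0.98 ± 0.19) among the risers, with sums of 312 to 344 CPM with DMSO and 365 to 416 CPM with IWR-1. Of these, 9 rose without IWR-1 replicate 3 and 2 for the library labelled IWR-1. The 2 endothelial models that fell, named after their values were seen, were egfl7 (log2 ratio -0.31) and robo4 (-0.24). The endothelial genes kdr, flt1 and tek were not called. Of 33 neural progenitor markers, 11 rose and 2 fell (median 0.50), irx3 (1.59 ± 0.17), nes (1.26 ± 0.17) and sox9 (0.74 ± 0.10) being higher. The 2 that fell, named after their values were seen, were fabp7 (-0.89) and sox3 (-0.83), and sox2 and pax6 were not called. The neural progenitor sums overlapped, at 439 to 522 CPM with DMSO and 507 to 602 CPM with IWR-1. Of 46 neuron models, 4 rose and 10 fell (median -0.12, positive without scaling), among the latter the axonal genes mapt (-1.24 ± 0.22), stmn2 (-0.56 ± 0.10) and gap43 (-0.38 ± 0.076), with sums of 528 to 589 CPM with DMSO and 425 to 449.8 CPM with IWR-1. The 4 neuron models that rose, named after their values were seen, were chat (log2 ratio 3.04), a celf3 model (1.89), dcx (1.08) and sncg (0.53). The neuron markers tubb3, elavl3, elavl4 and map2 were not called. The share of neuron models called lower was close to the 22.4% of all models, and the share called higher was below the 19.9% of all models.

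Leukocyte, pigment and notochord genes moved in both directions. Over all models, 19.9% were called higher and 22.4% lower. Rises made up more than the first share on the leukocyte, inflammation and melanophore lists. Falls made up less than the second share on the leukocyte and melanophore lists and were near it on the inflammation list. Of 29 leukocyte markers, 8 rose and 4 fell (median 0.20), csf3r (0.81 ± 0.093), a receptor of neutrophils, being higher and the protease gene ctss (-0.49 ± 0.086) lower, and the sums overlapped, at 587 to 619.6 CPM with DMSO and 609.6 to 640.3 CPM with IWR-1. Between 5 and 8 leukocyte markers rose when single libraries were left out, and 2 for the library labelled IWR-1, where the median was -0.074. Of 32 inflammation genes, 11 rose and 8 fell (median 0.15). The cytokine-signalling inhibitor gene socs3 (-0.84 ± 0.090), the adaptor gene myd88 (-0.47 ± 0.059) and the prostaglandin synthase gene ptgs2 (-0.50 ± 0.070) fell, and tnfaip6 (0.87 ± 0.12) rose. Other rises, picked out after their values were seen, included cxcl8 (log2 ratio 1.33), il1r2 (1.11), il1b (0.87) and tnf (0.71). Without IWR-1 replicate 2, 7 inflammation genes rose. Of 25 melanophore and neural crest markers, 8 rose and 4 fell (median 0.33), snai1 (0.61 ± 0.067) being higher and snai2 lower, and 5 rose without DMSO replicate 3. Notochord and cartilage sheath genes split 7 and 6 of 29 (median 0.039), with 4 rising without replicate 3 of either group. Their split was near the shares of all models called higher (19.9%) and lower (22.4%). The summed level of the notochord list was 4773 to 5058 CPM with DMSO and, slightly lower without overlap, 4611 to 4737 CPM with IWR-1. The notochord homeobox gene not had 12.6, 12.3 and 10.3 CPM with DMSO and 3.48, 3.89 and 5.32 CPM with IWR-1 (log2 ratio -1.47 ± 0.18, adjusted p = 1.2e-05), in separate ranges, and the cartilage matrix gene chad rose (1.32 ± 0.16).

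Skin and matrix genes changed in both directions. Of 34 epidermis and keratin models, 11 rose and 14 fell (median 0.015), and their summed level was 22915 to 26361 CPM with DMSO and 17445 to 18343 CPM with IWR-1. The simple-epithelium keratin gene krt18.1 had 1021, 1053 and 905 CPM with DMSO and 493, 431 and 474 CPM with IWR-1 (log2 ratio -1.09 ± 0.083, adjusted p = 6.2e-08), and the uroplakin gene upk3b had 176, 205 and 211 CPM with DMSO and 83.1, 78.3 and 71.3 CPM with IWR-1 (log2 ratio -1.35 ± 0.080, adjusted p = 5.3e-09). Both were clearly apart from DMSO. Of 58 collagen and matrix genes, 30 rose and 12 fell (median 0.32). The collagen crosslinking enzyme gene loxl2 had 32.1, 23.9 and 26.0 CPM with DMSO and 73.0, 78.5 and 87.6 CPM with IWR-1 (log2 ratio 1.55 ± 0.13, adjusted p = 1.6e-07) and col6a2 rose (0.87 ± 0.088), whereas the basement membrane gene nid2 (-0.74 ± 0.059) and hapln3, which links hyaluronan to proteoglycans (-0.87 ± 0.078), fell. Other basement membrane genes, picked out after their values were seen, went both ways. Of these, col4a2 (log2 ratio 1.47), col4a1 (1.23) and nid1 (0.72) rose, and lama1 (-0.73), lamb1 (-0.61) and lama5 (-0.57) fell. Of 37 metalloproteinase and inhibitor genes, 15 rose and 4 fell (median 0.18), mmp14 (-0.51 ± 0.058) and mmp3 (-0.63 ± 0.091) being lower and mmp28 (0.72 ± 0.11) and the sheddase gene adam10 (0.43 ± 0.066) higher. For the library labelled IWR-1, 5 rose and 5 fell. Motile cilia genes fell more often than they rose, 16 against 5 of 47 (median -0.23), the falls including the tubulin genes tubb4b (-0.69 ± 0.072) and tuba1a (-0.74 ± 0.095), which other cells also use, and the radial spoke gene rsph9 (-0.63 ± 0.14), with sums of 1205 to 1351 CPM with DMSO and 895 to 940.0 CPM with IWR-1. Only 7 cilia genes fell without scaling, 8 without DMSO replicate 2 and 3 for the library labelled IWR-1.

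**Figure D5:**
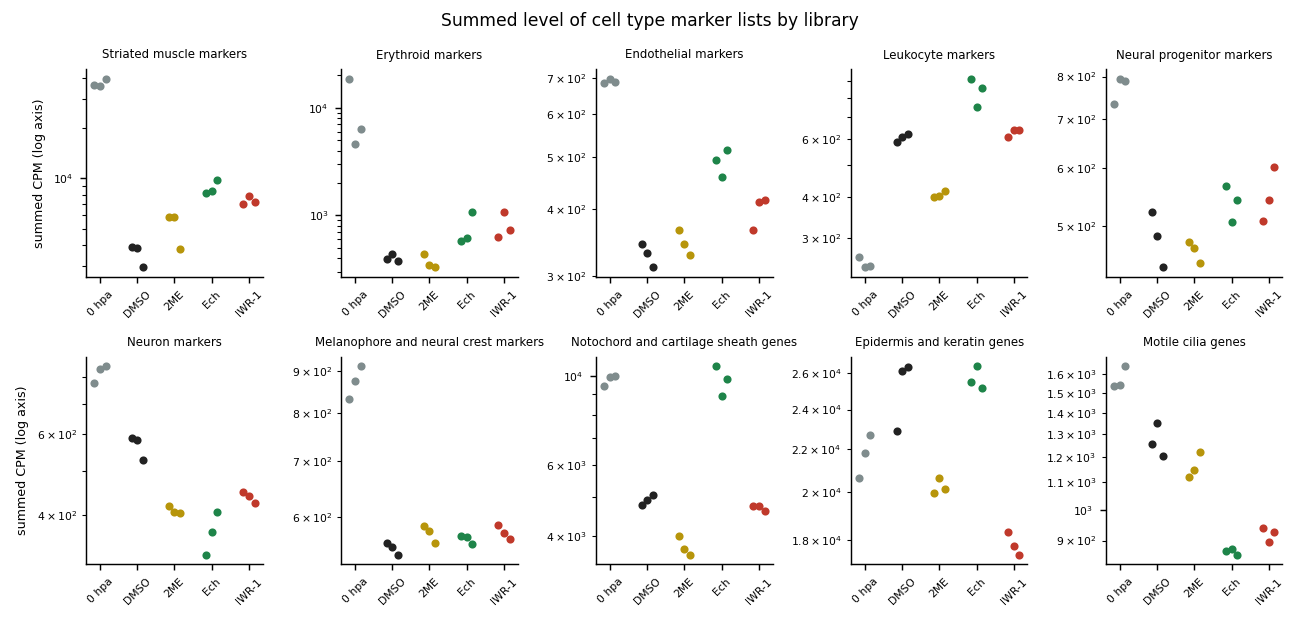
Summed TMM-scaled CPM (y axis, log scale) of 10 marker lists in each of 3 libraries of 5 groups (x axis). The striated muscle sum lies at 6992 to 7879 CPM with IWR-1, above the 2939 to 3875 CPM with DMSO and below 0 hpa, while the epidermis and keratin sum lies below DMSO.

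Genes of cell division and ribosome assembly fell by small amounts, in numbers that depended on the scaling. Of 54 DNA replication models, 21 fell and 0 rose (median -0.19), including the nucleotide enzyme genes tk1 (-0.67 ± 0.11) and dhfr (gene15842, -0.77 ± 0.13). At an unadjusted p under 0.05, 1 replication model was higher, DESeq2 called 0 and limma on the authors' CPM 1. Of 63 mitosis models, 26 fell and 1 rose (median -0.22), with ube2c (-0.68 ± 0.079) and spc25 (-0.62 ± 0.12) lower. Of 74 ribosome assembly models, 36 fell and 2 rose (median -0.15), with the nucleolar genes nop58 (-0.56 ± 0.065), dkc1 (-0.51 ± 0.069) and npm1 (-0.43 ± 0.062) lower. Without scaling, 7 replication, 14 mitosis and 13 ribosome assembly models fell, 12 ribosome assembly models rose and their median turned to 0.016. For the library labelled IWR-1 the falls numbered 2, 4 and 12, and without DMSO replicate 2 they numbered 10 for replication and 23 for ribosome assembly.

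Early response, p53 and apoptosis genes were mixed. Over all models, 19.9% were called higher and 22.4% lower, and the shares in these lists were not far from those. Of 32 immediate early and AP-1 genes, 8 rose and 9 fell (median 0.069). Alongside fos, the phosphatase gene dusp1 had 72.7, 77.4 and 73.7 CPM with DMSO and 26.5, 29.8 and 33.2 CPM with IWR-1 (log2 ratio -1.32 ± 0.13, adjusted p = 8.1e-07) and the nuclear receptor gene nr4a1 fell by 1.19, while jund rose (0.81 ± 0.068). The glucocorticoid- and thyroid hormone-responsive factor klf9, picked out after its values were seen, rose (1.87 ± 0.21). Of 34 models of p53 and its induced genes, 5 rose and 10 fell (median -0.053, positive without scaling), gadd45g (gene26127, -1.22 ± 0.078) and ppm1d (-0.52 ± 0.061) being lower and tp53inp1 (1.47 ± 0.19) and sesn3 (1.42 ± 0.13) higher. Without DMSO replicate 2, 6 p53 genes fell. Of 31 apoptosis genes, 7 rose and 9 fell (median 0.0024), and 4 rose without DMSO replicate 2 or IWR-1 replicate 3. The pro-apoptotic gene bmf had 84.6, 71.6 and 73.8 CPM with DMSO and 193, 186 and 165 CPM with IWR-1 (log2 ratio 1.24 ± 0.072, adjusted p = 4.5e-09), in separate ranges, while the kinase gene ripk1 (-0.51 ± 0.063) fell.

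IWR-1 was also compared directly with the 2 other compounds at 24 hpa, which were given at other concentrations, so that the differences are between these treatments as applied. Against 2ME, 4235 models (22.5%) were called, 2152 higher with IWR-1 (11.4%) and 2083 lower (11.1%), and against echinomycin 6553 (34.8%), 3502 higher (18.6%) and 3051 lower (16.2%). Sterol and fatty acid genes were higher with IWR-1 than with either, 28 of 35 against 2ME and 30 of 35 against echinomycin, and 1 was lower in each. For fasn the log2 difference was 1.49 ± 0.16, adjusted p = 4.0e-06 against 2ME, and 2.22 ± 0.16, adjusted p = 3.5e-08 against echinomycin. The Wnt readout axin2 was lower with IWR-1 than with 2ME (-0.73 ± 0.075, adjusted p = 3.1e-06) and than with echinomycin (-0.27 ± 0.076, adjusted p = 0.0097), as was dkk1 (-1.42 ± 0.089, adjusted p = 2.4e-08 against 2ME, and -0.41 ± 0.091, adjusted p = 0.0020 against echinomycin). Of the 37 Wnt target and feedback genes, 21 were lower and 4 higher than with 2ME, and 16 lower and 6 higher than with echinomycin. Against the shared DMSO libraries, 20 of the 37 fell and 15 rose with echinomycin (median -0.25). With 2ME 6 fell and 5 rose (median 0.022), and with IWR-1 19 fell and 4 rose (median -0.20). The shares of all models called against DMSO with 2ME or echinomycin are not given here. These counts, and the hox counts below, therefore cannot be set against the call rate of each compound. The posterior hox models were lower than with 2ME in 9 of 16 and than with echinomycin in 8 of 16, with 1 higher. Falls of hox genes from DMSO were also seen with the other compounds. Posterior models had 12 falls and 0 rises with 2ME (median -0.56), and 12 falls and 1 rise with echinomycin (median -0.68). With IWR-1 they had 13 falls and 0 rises (median -1.02). Of 11 central hox models, 8 fell with 2ME, 5 with echinomycin (1 rose) and 9 with IWR-1. Several of the falls from DMSO with IWR-1 were not called against echinomycin. Here fgf8 differed by 0.17 ± 0.19, adjusted p = 0.52, and mean levels were 2.48, 2.19 and 8.33 CPM with IWR-1, echinomycin and 2ME. For dlx4 the difference from echinomycin was -0.16 ± 0.092, adjusted p = 0.19 and for cdx2 -0.042 ± 0.16, adjusted p = 0.87, whereas both were lower than with 2ME (-1.45 ± 0.090, adjusted p = 2.1e-08, and -1.01 ± 0.16, adjusted p = 1.9e-04). Ribosome assembly models stood between the other compounds, 48 of 74 lower than with 2ME and 66 of 74 higher than with echinomycin. DNA replication genes were higher than with echinomycin in 47 of 54, and leukocyte markers were higher than with 2ME in 19 of 29 and lower than with echinomycin in 23 of 29. Muscle markers were higher than with 2ME in 23 of 45 and lower than with echinomycin in 7, with 3 higher. Their median log2 ratios to the shared DMSO libraries were 1.23 with IWR-1, 0.68 with 2ME and 1.40 with echinomycin.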

How the data were processed

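RNA of tadpole tail tissue was made into libraries with the NEBNext Ultra kit and sequenced as paired ends, per the labels' protocols. Per the submitters' processing notes, Trim Galore 0.6.5, kallisto and edgeR were used. The strand setting is not given in the sources used here. Per the file headers, the authors deposited for each library kallisto's estimated count and TPM for 34192 gene models, whose IDs name the build XT-9_1, and for the series a CPM table of 15892 models, which omits some list members. Expected counts were rounded to whole numbers. The deposited TPM values were not used in a test, and levels here were recomputed from the counts.

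Models were filtered with filterByExpr (minimum 10 counts, total 15), leaving 18823, and all 15 libraries were fitted with edgeR 4.0.16 (TMM factors, quasi-likelihood test, 1 coefficient per group, adjusted p under 0.05, R 4.3.3). The standard error was the log2 ratio divided by the root of the F statistic. Alternatives used DESeq2 1.42.0, other scaling factors and filters, an effective length offset, a replicate block and limma 3.58.1 on log2(CPM + 1) of the authors' table. The fit was also run on simulated counts in which few models changed, in directions drawn at random. That simulation did not cover the dependence of the calls on scaling. Tables were made with pandas 2.3.3 and numpy 2.4.6, exact intervals with scipy 1.17.1 and figures with matplotlib 3.10.9, all under Python 3.11.15.

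The 41 gene lists held 1435 symbols, of which 1329 were found, 23 by a synonym in a reference table of another build used for names only. They gave 1364 models, 1279 of them tested and 76 in more than 1 list. The members and lists were chosen with earlier results of these data known. Named genes were the 12 largest rises and falls among called models with a mean of at least 5 CPM in 1 group, no overlap and a symbol that is no placeholder, every tested Wnt list member (the text names part of them and counts the rest), and up to 4 members per other list with the smallest adjusted p. Genes outside this rule are said in the text to have been chosen after their values were seen, and further hox and fatty acid synthesis genes come from their lists. A few genes of the lists are not reported here by name.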

Additional observations from a re-analysis of the deposited data

How the results depend on the processing

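The count of 7960 called models ranged from 6134 to 7637 when single libraries were left out, and was 7683 with a replicate block. Correlations of deviations from the group mean were 0.0016 to 0.14 in the 3 same-number pairs and -0.19 to 0.11 in the 6 others. Not every library correlated best with its own number, and 3 pairs are too few to tell whether the replicate numbers pair the samples. Without scaling 5715 models were higher and 2296 lower, and limma on the authors' CPM gave 2176 lower. For the library labelled IWR-1 alone, 3443 models were called against DMSO (1708 higher and 1735 lower), 1571 against 2ME and 3537 against echinomycin. Among 192 named genes, 172 kept their direction and call without scaling and 158 for that library. Without scaling, lef1, znrf3, ccnd1, wif1, porcn, fzd6, fzd7, ror2 and ptk7 lost their calls, and apc, tnks, myc, rnf43 and sp8 were called higher. Changes of sign were in log2 ratios near 0. Without scaling and with limma the ratio was 0.086 and 0.081 for axin1, 0.028 and 0.029 for ctnnb1, 0.027 and 0.020 for gsk3b, 0.082 and 0.082 for lrp6, 0.12 and 0.10 for nkd1, and 0.13 and 0.13 for notum. With upper-quartile factors nkd1 was at 0.00050 and notum at 0.018. For the library labelled IWR-1 alone lrp5 was at -0.036 and notum at 0.064, and with the 2 groups fitted alone notum was at 0.0014. Without single libraries, myc ranged from -0.016 to 0.061, nkd1 from -0.12 to 0.080 and notum from -0.072 to 0.055. The causes were not tested. At this depth 6 of 51 muscle marker models were under the count filter and not tested.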

Other observations

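The IWR library whose treatment field reads IWR-1 was more often the nearest to DMSO than the others. Among the 1624 models called with a change of 2-fold or more, replicate 1 lay nearest to the DMSO mean on the log2(CPM + 1) scale in 963 (59.3%), replicate 2 in 368 (22.7%) and replicate 3 in 293 (18.0%). The share for replicate 1 was 61.2% of the 1117 rises and 55.0% of the 507 falls. Whether this goes with the treatment labels was not tested, since each label has 1 library.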
